A study of Homo sapiens with 12 samples.

Results

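The 10 genes described here are markers of the epithelial-mesenchymal transition (EMT). They were chosen by name for their roles, with earlier results of these data known. They are the cadherins CDH1 and CDH2, the transcription factors ZEB1, ZEB2, SNAI1, SNAI2 and TWIST1, and the mesenchymal markers VIM, FN1 and CD44. All 10 were found by Entrez identifier among the 26258 genes of the deposited table, and 9 of the 10 passed a minimum of 1 CPM in at least 2 of the 12 libraries and were tested among 13515 genes. CPM scales the reads of each gene to a library total of 1000000. HLE is a cell line from a human hepatocellular carcinoma. Its cells received control siRNA (siCtrl), siRNAs that target YAP together with TAZ (siY/T), or siRNA that targets ATF4 (siATF4). They were then treated with the vehicle DMSO or with Sorafenib (Srf), a multikinase inhibitor used against liver cancer, and each of the 6 groups holds 2 libraries. The labels give 5 µM Sorafenib and no time. A figure legend of the study gives another dose, and a time, for the sequenced cells, so the dose is not settled here. All groups, the controls included, come from 1 cell line and were transfected with siRNA, so untransfected cells were not analysed here. The study's methods describe RNA from biological replicates, but more of them per group than the labels give. The labels do not say whether the 2 libraries of a group came from separate cultures, so the p-values below measure the spread between these libraries, which may be technical.

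In EMT, epithelial cells loosen their E-cadherin junctions and take up a mesenchymal state with vimentin filaments, fibronectin matrix and greater motility. The zinc finger factors of the SNAI and ZEB families bind E-box motifs and repress CDH1, and TWIST1 is a helix-loop-helix factor that acts in the same program. In liver cancer, lines that have lost hepatocyte features are often mesenchymal in this sense. YAP and TAZ, the latter encoded by WWTR1, are coactivators that bind DNA through TEAD factors, and ATF4 is the transcription factor of the amino acid and endoplasmic reticulum stress response.

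The promoters of FN1 and of ZEB1 are shown because FN1 fell and ZEB1 rose with siATF4 in both DMSO and Sorafenib, and because both hold one of the motifs searched. The RefSeq promoter table for GRCh38.p14, a later build than that of the deposited values, matched 6 of the 10 genes (VIM, CDH2, ZEB1, ZEB2, FN1 and CD44), with 13 start sites of which 7 belong to ZEB1. The 250 bases before each start are considered, written in the direction of the gene, and capitals mark a motif match. The FN1 window lies at chr2:215436069-215436318 on the minus strand, and the window of the ZEB1 start with the lowest coordinate lies at chr10:31318167-31318416 on the plus strand.
FN1: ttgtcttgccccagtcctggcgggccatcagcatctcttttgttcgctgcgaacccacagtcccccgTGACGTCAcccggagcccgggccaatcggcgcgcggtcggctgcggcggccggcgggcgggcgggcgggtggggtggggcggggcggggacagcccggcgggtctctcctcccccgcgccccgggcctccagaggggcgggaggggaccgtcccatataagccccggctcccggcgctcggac
ZEB1: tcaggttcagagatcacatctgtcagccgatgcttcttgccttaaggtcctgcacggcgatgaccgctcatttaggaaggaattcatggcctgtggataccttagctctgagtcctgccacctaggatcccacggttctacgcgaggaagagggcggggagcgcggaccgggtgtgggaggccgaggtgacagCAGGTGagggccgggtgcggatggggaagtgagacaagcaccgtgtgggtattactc

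The capitals in FN1 are the cyclic AMP response element TGACGTCA, a palindrome whose first base lies at position -183 from the start. The capitals in ZEB1 are the E-box CAGGTG at position -57. The E-box was searched as CACCTG or CAGGTG, which are the same site on either strand, and a further ZEB1 start held it at positions -242 and -85. TEAD motifs were searched as CATTCC or GGAATG, an ATF4 motif as TGATGNAAN and AP-1 sites as TGACTCA or TGAGTCA, all on both strands, and these letters were not in the 13 windows. Among 35116 promoter windows of the same length, 17.49% held the E-box, 11.89% the TEAD letters, 1.646% the cyclic AMP response element, 3.132% the ATF4 letters and 4.203% an AP-1 site. A match is a description of the sequence and is not evidence of binding.

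Depth ranged from 41408348 to 53619732 reads on genes per library, so that 1 read stood for 0.0186 to 0.0241 CPM. YAP1 was at 277 and 279.9 CPM in siCtrl DMSO and at 46.6 and 57.7 CPM in siY/T DMSO libraries, WWTR1 at 169.8 and 173 against 53.3 and 68.6 CPM. ATF4 was at 248 and 249 CPM in siCtrl DMSO and at 96.2 and 100.7 CPM in siATF4 DMSO libraries. WWTR1 was also lower in siATF4 DMSO libraries, with 107 and 104 CPM. ATF4 in turn was lower with siY/T, at 207 and 197 CPM in DMSO. With Sorafenib, ATF4 was at 484 and 492 CPM in siCtrl and at 317 and 314 CPM in siY/T libraries. The siY/T DMSO libraries stood further apart from each other than those of other groups, with a chi-square of 20.7 per gene against 2.98 to 8.30. Of 16 hepatocyte markers, 13 stayed under 1 CPM in all libraries, ALB, AFP and HNF4A among them, and the summed level of the list ranged from 71.5 to 440.0 CPM, most of it FGB. In DMSO, FGB was at 368 and 431 CPM in siCtrl, 225 and 254 CPM in siY/T, and 68.5 and 72.2 CPM in siATF4 libraries. The siCtrl Srf libraries held 177 and 173 CPM of FGB. The 5 endothelial markers stayed under 1 CPM, as did 4 of 5 haematopoietic markers, and CD68 was at 71.9 and 75.0 CPM in siATF4 DMSO against 19.8 and 21.1 CPM in siCtrl DMSO libraries. The part of these shifts in the results below was not tested.

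Levels of different genes can be set side by side only per length. In siCtrl DMSO cells, the mean CPM per kilobase of the canonical transcript was 1081 for VIM and 139 for CD44. ZEB2 at 6.92, FN1 at 6.34, SNAI1 at 5.39 and TWIST1 at 5.07 CPM per kilobase formed a middle group, followed by ZEB1 at 2.62 and CDH2 at 1.31. CDH1 stood at 0.167 CPM per kilobase and SNAI2 at 0. Vimentin and CD44 RNA were thus the highest of the 10 in vehicle-treated control cells, and E-cadherin and Slug RNA the lowest.

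**Figure D1:**
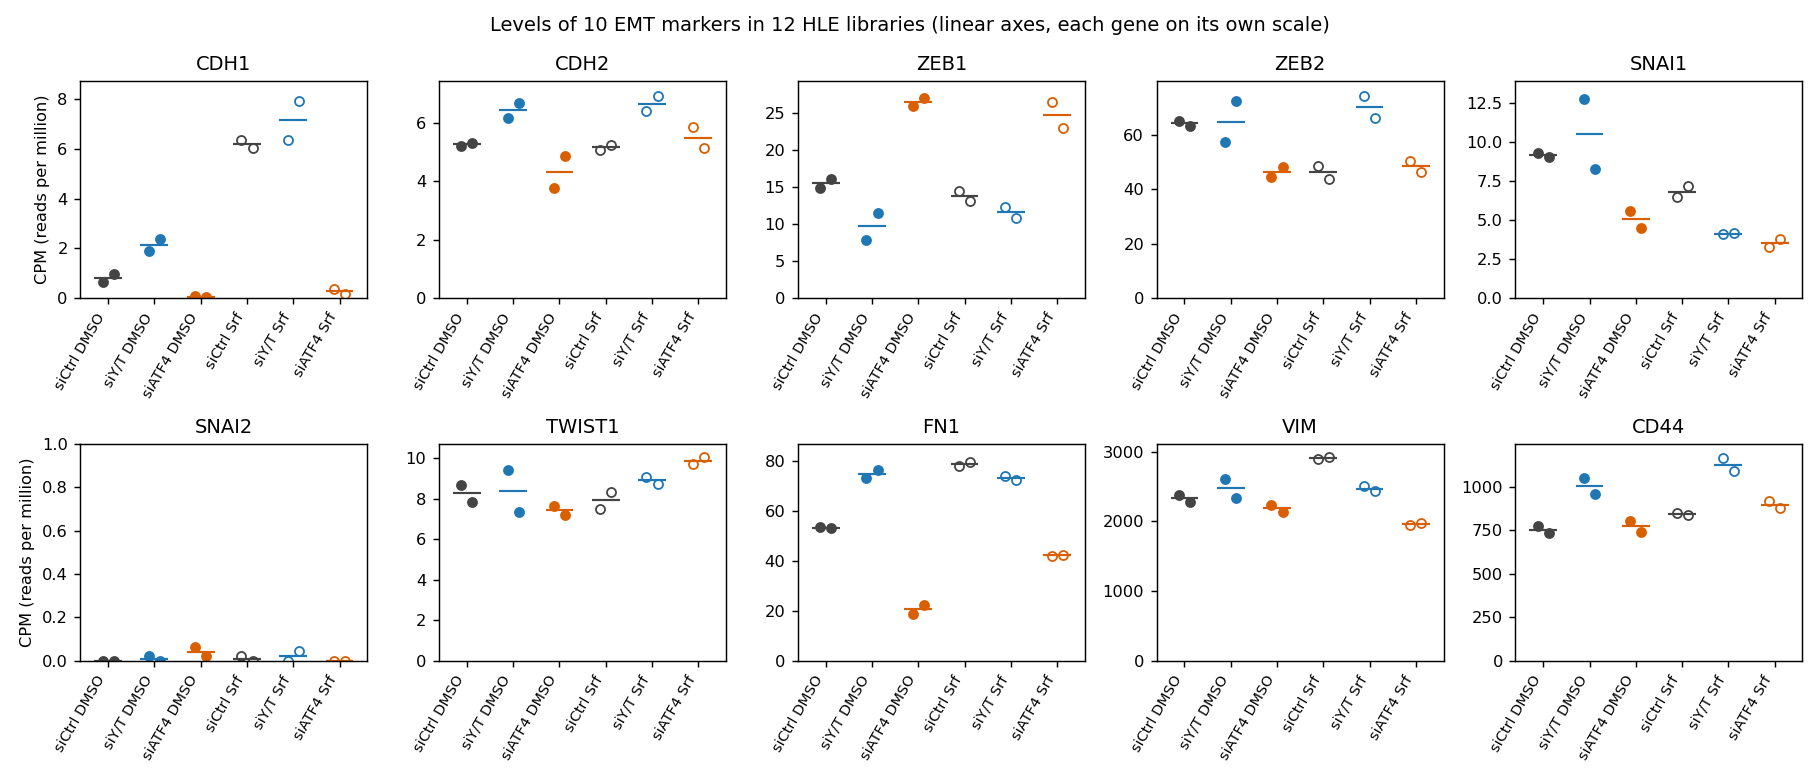
Level of each of the 10 genes in CPM (linear y axes from 0, each gene on its own scale) in the 12 libraries. Points are libraries, horizontal lines the mean of 2, filled points DMSO and open points Sorafenib. CDH1 is near 0 in siATF4 libraries and reaches 7.93 CPM in a siY/T Srf library, whereas SNAI2 stays at or under 0.0643 CPM throughout.

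Calls required a two-sided limma p, unadjusted, under 0.05 together with a log2 fold change of at least 0.58 in either direction, the thresholds of the study's methods. Fold changes are on the scale of log2(CPM + 0.5) and adjusted p-values are limma's with Benjamini-Hochberg adjustment over 13515 genes. With siATF4, 4 of the 9 tested markers were called in DMSO and the same 4 in Sorafenib. ZEB1 rose, while CDH1, FN1 and SNAI1 fell. Among all genes, 8.57% rose and 14.1% fell with siATF4 in DMSO, and 10.3% rose and 18.7% fell in Sorafenib. With siY/T, 2 of 9 were called in DMSO, where CDH1 rose and ZEB1 fell, against 11.0% of all genes that rose and 3.61% that fell. With siY/T in Sorafenib, ZEB2 rose and SNAI1 fell, against 6.11% and 3.84% of all genes. The comparisons within DMSO, and those within Sorafenib, share their siCtrl libraries. Where CDH1 is counted, it passed the minimum of 1 CPM only through siY/T and siCtrl Srf libraries.

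**Figure D2:**
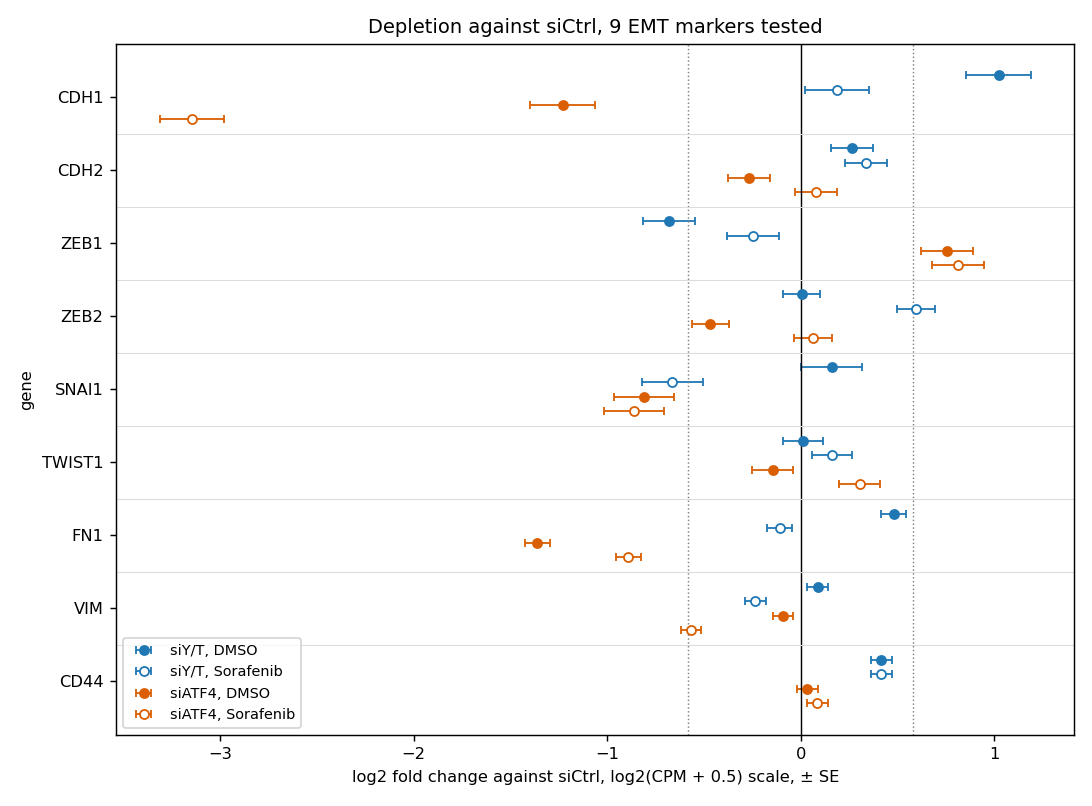
Log2 fold change against siCtrl on the log2(CPM + 0.5) scale (x axis) for the 9 tested genes (y axis), with bars of 1 standard error from limma over 12 libraries. Dotted lines mark a change of 0.58 in either direction. ZEB1 lies right of the line with siATF4 and left of 0 with siY/T, and FN1 and CDH1 lie far left with siATF4.

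CDH1 encodes E-cadherin, the adhesion protein of epithelial junctions, and lies on GRCh37 at chr16:68771195-68869440. Its level was 0.653 and 0.954 CPM in siCtrl DMSO libraries and 1.89 and 2.39 CPM in siY/T DMSO libraries. The siATF4 DMSO libraries held 0.0643 and 0.0396 CPM, which is 3 and 2 reads. None of these groups overlapped, and siATF4 was lowest. CDH1 rose by 1.02 ± 0.17 (SE, log2) with siY/T (limma adjusted p = 0.000167) and fell by 1.23 ± 0.17 with siATF4 (limma adjusted p = 2.32e-05). It passed the minimum of 1 CPM only through libraries where it was high, those of siY/T and siCtrl Srf. Both groups of the siATF4 comparison in DMSO lay under that minimum. The p-values of CDH1 here and below are therefore a description and not independent support. In bulk RNA, fewer cells that express a gene and less RNA per cell cannot be told apart.

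With Sorafenib, CDH1 reached 6.35 and 6.02 CPM in siCtrl, and 6.38 and 7.93 CPM in siY/T libraries. The siATF4 Srf libraries stayed at 0.379 and 0.150 CPM, or 20 and 7 reads, below every siCtrl and siY/T library of either treatment. Sorafenib raised CDH1 by 2.37 ± 0.17 (log2) in siCtrl cells (limma adjusted p = 1.06e-07) and by 1.53 ± 0.17 in siY/T cells (limma adjusted p = 8.97e-06). In siATF4 cells its change of 0.45 ± 0.17 (limma adjusted p = 0.0374) was short of the fold required. The siY/T and siCtrl cells in Sorafenib differed by 0.19 ± 0.17 (limma adjusted p = 0.377), which was not beyond the spread, and with siATF4 CDH1 fell by 3.14 ± 0.17 (limma adjusted p = 2.41e-09).

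Since 0.5 is added to each CPM, such folds understate changes of genes at this level. In reads, CDH1 was 15.4-fold lower with siATF4 in DMSO (95% exact interval 6.31 to 48.6, 5 against 78 reads). In Sorafenib it was 22.8-fold lower (15.5 to 34.9, 27 against 611 reads), and these intervals cover counting error only. Sorafenib gave 7.83-fold more CDH1 reads in siCtrl cells (6.18 to 10.0), 3.36-fold more in siY/T cells (2.86 to 3.97) and 5.28-fold more in siATF4 cells (2.00 to 17.5). The rise of CDH1 in siATF4 cells passed both thresholds in edgeR and DESeq2 on the recovered reads, at 2.31 and 2.36 on the log2 scale. It also passed them at 0.67 in limma without siATF4 Srf replicate 2, the library with 7 reads.

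CDH2 encodes N-cadherin, the cadherin of many mesenchymal and neural cells, on GRCh37 at chr18:25512843-25757910. It was at 5.22 and 5.30 CPM in siCtrl DMSO, 6.16 and 6.69 CPM in siY/T DMSO, and 3.77 and 4.87 CPM in siATF4 DMSO libraries. With Sorafenib the levels were 5.08 and 5.23 CPM in siCtrl, 6.40 and 6.92 CPM in siY/T, and 5.84 and 5.14 CPM in siATF4 libraries. The siY/T libraries were the 4 highest of the 12. CDH2 was called in 0 of the 9 pairwise comparisons by limma, edgeR and DESeq2, although 6 had an unadjusted limma p under 0.05. The differences of siY/T from siCtrl were 0.26 ± 0.11 (limma adjusted p = 0.0507) in DMSO and 0.34 ± 0.11 (limma adjusted p = 0.0202) in Sorafenib.

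ZEB1, a zinc finger repressor of CDH1, lies on GRCh37 at chr10:31607424-31818742. It was at 15.0 and 16.1 CPM in siCtrl DMSO, 7.84 and 11.5 CPM in siY/T DMSO, and 26.1 and 27.0 CPM in siATF4 DMSO libraries. With Sorafenib it was at 14.5 and 13.2 CPM in siCtrl, 12.3 and 10.8 CPM in siY/T, and 26.5 and 23.0 CPM in siATF4 libraries. The 4 siATF4 libraries were the highest of the 12 and the 4 siY/T libraries the lowest. ZEB1 rose by 0.75 ± 0.13 (log2) with siATF4 in DMSO (limma adjusted p = 0.000246) and by 0.81 ± 0.13 in Sorafenib (limma adjusted p = 0.000105). It fell by 0.68 ± 0.13 with siY/T in DMSO (limma adjusted p = 0.000752), and the difference in Sorafenib was -0.25 ± 0.13 (limma adjusted p = 0.144). Without siY/T DMSO replicate 1 the fall was 0.41 and was no longer called. Sorafenib did not change ZEB1 past the thresholds with any of the 3 siRNAs, with values of -0.16, 0.27 and -0.10 in siCtrl, siY/T and siATF4 cells.

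ZEB2, the paralog of ZEB1, on GRCh37 at chr2:145121931-145278624, was also abundant enough to test. It was at 65.1 and 63.1 CPM in siCtrl DMSO, 57.2 and 72.2 CPM in siY/T DMSO, and 44.5 and 48.1 CPM in siATF4 DMSO libraries. With Sorafenib it was at 48.6 and 43.8 CPM in siCtrl, 74.3 and 65.9 CPM in siY/T, and 50.5 and 46.2 CPM in siATF4 libraries. The siY/T libraries overlapped siCtrl in DMSO and lay above it in Sorafenib. ZEB2 rose by 0.60 ± 0.10 (log2) with siY/T in Sorafenib (limma adjusted p = 0.000224), just past the fold required, and fell short of it at 0.53 to 0.55 under TMM scaling, quantile normalization, edgeR and DESeq2. Without siCtrl Srf replicate 2 or siY/T Srf replicate 1 the value was 0.52 or 0.51 and was no longer called. Its differences of -0.47 ± 0.10 with siATF4 in DMSO (limma adjusted p = 0.000773) and of -0.47 ± 0.10 with Sorafenib in siCtrl cells (limma adjusted p = 0.000868) were short of the fold.

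SNAI1, or Snail, on GRCh37 at chr20:48599517-48605423, is a zinc finger repressor of CDH1. It was at 9.32 and 9.05 CPM in siCtrl DMSO, 12.8 and 8.31 CPM in siY/T DMSO, and 5.59 and 4.52 CPM in siATF4 DMSO libraries. The Sorafenib libraries held 6.47 and 7.18 CPM in siCtrl, 4.09 and 4.16 CPM in siY/T, and 3.26 and 3.81 CPM in siATF4 libraries. Every siATF4 library was below the siCtrl libraries of its treatment, whereas the siY/T DMSO pair spread over the siCtrl values. SNAI1 fell by 0.81 ± 0.16 (log2) with siATF4 in DMSO (limma adjusted p = 0.000464), by 0.86 ± 0.16 with siATF4 in Sorafenib (limma adjusted p = 0.000233) and by 0.66 ± 0.16 with siY/T in Sorafenib (limma adjusted p = 0.00347). With Sorafenib it fell by 1.23 ± 0.16 in siY/T cells (limma adjusted p = 3.18e-05), and its differences of -0.40 and -0.46 in siCtrl and siATF4 cells were short of the fold. Without siATF4 DMSO replicate 2 the latter was -0.60 and was called.

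SNAI2, or Slug, on GRCh37 at chr8:49830157-49834299, was hardly detected. It had 8 reads in the 12 libraries together, at most 3 in a library, and 0 in 7 of them, so no difference in SNAI2 was detectable at this depth. TWIST1, on GRCh37 at chr7:19060614-19157259, was at 8.67 and 7.86 CPM in siCtrl DMSO, 9.42 and 7.37 CPM in siY/T DMSO, and 7.65 and 7.19 CPM in siATF4 DMSO libraries. With Sorafenib it was at 7.50 and 8.32 CPM in siCtrl, 9.07 and 8.74 CPM in siY/T, and 9.69 and 10.1 CPM in siATF4 libraries, the last pair being the highest of the 12. The 9 pairwise comparisons called TWIST1 0 times by limma, edgeR and DESeq2, and 2 had an unadjusted limma p under 0.05. Its largest difference was 0.39 ± 0.10 with Sorafenib in siATF4 cells (limma adjusted p = 0.00714).

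FN1 encodes fibronectin, a matrix glycoprotein, on GRCh37 at chr2:216225163-216300796. It was at 53.4 and 53.0 CPM in siCtrl DMSO, 72.9 and 76.0 CPM in siY/T DMSO, and 18.8 and 22.2 CPM in siATF4 DMSO libraries. Sorafenib libraries stood at 77.8 and 79.6 CPM in siCtrl, 73.9 and 72.1 CPM in siY/T, and 41.9 and 42.4 CPM in siATF4 libraries. The 4 siATF4 libraries were the lowest of the 12. FN1 fell by 1.36 ± 0.06 (log2) with siATF4 in DMSO (limma adjusted p = 1.20e-09) and by 0.89 ± 0.06 in Sorafenib (limma adjusted p = 4.46e-08). Sorafenib raised it by 1.03 ± 0.06 in siATF4 cells (limma adjusted p = 8.86e-08). In siCtrl cells the difference was 0.56 ± 0.06 (limma adjusted p = 7.20e-06), short of the fold, and in siY/T cells -0.03 ± 0.06 (limma adjusted p = 0.730). With siY/T in DMSO it was 0.48 ± 0.06 above siCtrl (limma adjusted p = 3.19e-05), and in Sorafenib -0.11 ± 0.06 (limma adjusted p = 0.187).

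VIM encodes vimentin, the mesenchymal intermediate filament, on GRCh37 at chr10:17270240-17279592. It was at 2375 and 2280.4 CPM in siCtrl DMSO, 2612 and 2339 CPM in siY/T DMSO, and 2238 and 2130.4 CPM in siATF4 DMSO libraries. In Sorafenib it stood at 2892 and 2916 CPM in siCtrl, 2509 and 2431 CPM in siY/T, and 1952 and 1974 CPM in siATF4 libraries. The siCtrl Srf pair was the highest and the siATF4 Srf pair the lowest of the 12. VIM was called in 0 of the 9 pairwise comparisons by limma, edgeR and DESeq2, and 6 had an unadjusted limma p under 0.05. The nearest to the fold was siATF4 in Sorafenib, at -0.57 ± 0.05 (limma adjusted p = 4.88e-07), and Sorafenib in siCtrl cells gave 0.32 ± 0.05 (limma adjusted p = 0.000153).

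CD44, a hyaluronan receptor and a marker of mesenchymal and stem-like tumor cells, lies on GRCh37 at chr11:35160429-35253949. It was at 772 and 736 CPM in siCtrl DMSO, 1053 and 961 CPM in siY/T DMSO, and 802 and 743 CPM in siATF4 DMSO libraries. With Sorafenib it was at 849.9 and 838 CPM in siCtrl, 1166 and 1089 CPM in siY/T, and 916 and 877 CPM in siATF4 libraries. The 4 siY/T libraries were the highest of the 12. The difference between siY/T and siCtrl was 0.42 ± 0.06 (log2) both in DMSO (limma adjusted p = 2.87e-05) and in Sorafenib (limma adjusted p = 4.38e-05), larger than the spread of the libraries but short of the fold. CD44 was called in 0 of the 9 pairwise comparisons by limma, edgeR and DESeq2, and 7 had an unadjusted limma p under 0.05. The annotation places VIM-AS1, ZEB1-AS1, ZEB2-AS1 and CD44-AS1 on the other strand of their genes, and the sources used here do not state whether reads were counted by strand, so reads of these pairs cannot be told apart.

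Sorafenib against DMSO changed 1 or 2 of the 9 genes with each siRNA. In siCtrl cells CDH1 rose, against 12.3% of all genes that rose and 5.15% that fell. With 1 of 9 raised, the count in siCtrl cells is near the share of all genes. In siY/T cells CDH1 rose and SNAI1 fell, against 5.83% and 4.14% of all genes. In siATF4 cells FN1 rose, against 5.68% of all genes that rose and 2.95% that fell. The effect of Sorafenib differed between siRNAs for several markers. A difference between effects was called at a limma adjusted p under 0.05. It was called for 5 of 9 with siY/T, against 22.0% of all genes, and for 5 of 9 with siATF4, against 41.1% of all genes. With siY/T, the Sorafenib effect was lower than in siCtrl cells by 0.59 ± 0.09 for FN1 and 0.32 ± 0.07 for VIM, and higher by 0.59 ± 0.14 for ZEB2 (limma adjusted p = 0.000986, 0.00916 and 0.00887). It was also lower by 0.82 ± 0.22 for SNAI1 and by 0.84 ± 0.24 for CDH1 (limma adjusted p = 0.0193 and 0.0247). The SNAI1 difference lost its call without siCtrl DMSO replicate 1 (-0.84), siCtrl DMSO replicate 2 (-0.80), siCtrl Srf replicate 2 (-0.75) or siY/T Srf replicate 1 (-0.81), and came to -0.53 without siY/T DMSO replicate 1 (limma adjusted p = 0.0261). The CDH1 difference lost its call without siCtrl DMSO replicate 1 (-0.67), siCtrl Srf replicate 1 (-0.80), siCtrl Srf replicate 2 (-0.87) or siY/T Srf replicate 1 (-0.69), and also with a pseudocount of 0.1, at -1.12 (limma adjusted p = 0.0535). Without a filter on low values, where more genes were tested, the SNAI1, CDH1 and VIM differences lost their calls (limma adjusted p = 0.0685, 0.0664 and 0.0620), and the VIM difference lost its call without siCtrl DMSO replicate 2 as well (-0.29). A ZEB1 difference of 0.69 was called without siY/T DMSO replicate 2.

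With siATF4, the Sorafenib effect was higher than in siCtrl cells by 0.47 ± 0.09 for FN1, 0.45 ± 0.15 for TWIST1 and 0.53 ± 0.14 for ZEB2 (limma adjusted p = 0.00140, 0.0267 and 0.00767). It was lower by 0.47 ± 0.07 for VIM (limma adjusted p = 0.000297), or by 0.28 under quantile normalization. For CDH1 it was lower by 1.91 ± 0.24 on the log2(CPM + 0.5) scale (limma adjusted p = 5.23e-05). On the recovered reads, where no 0.5 is added, that difference was -0.62 in edgeR (adjusted p = 0.651) and -0.56 in DESeq2 (adjusted p = 0.611), and it was not called. The TWIST1 difference lost its call without siCtrl DMSO replicate 1 (0.38), siCtrl Srf replicate 1 (0.38), siATF4 DMSO replicate 2 (0.41), siATF4 Srf replicate 1 (0.48) or siATF4 Srf replicate 2 (0.42), and also without a filter on low values (limma adjusted p = 0.0700). A CDH2 difference of 0.51 was called without siATF4 DMSO replicate 2.

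**Figure D3:**
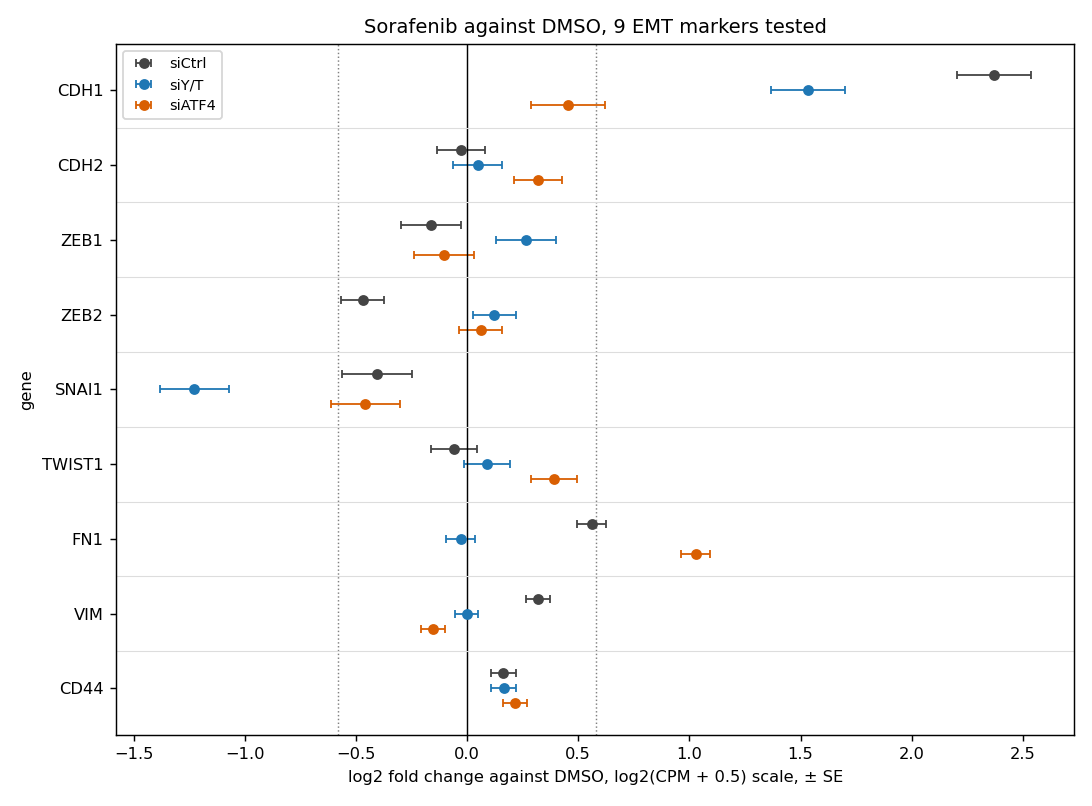
Log2 fold change of Sorafenib against DMSO on the log2(CPM + 0.5) scale (x axis) for the 9 tested genes (y axis) in siCtrl, siY/T and siATF4 cells, with bars of 1 standard error from limma. Dotted lines mark a change of 0.58 in either direction. CDH1 rises in siCtrl and siY/T cells, SNAI1 falls past the line in siY/T cells, and FN1 rises past it in siATF4 cells.

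Compared directly, siY/T and siATF4 cells differed in 4 of 9 markers in DMSO. CDH1, FN1 and SNAI1 were higher and ZEB1 lower in siY/T cells, against 22.7% of all genes that were higher and 13.0% that were lower. The differences were 2.25 ± 0.17 for CDH1, 1.84 ± 0.06 for FN1, 0.97 ± 0.16 for SNAI1 and -1.43 ± 0.13 for ZEB1 (limma adjusted p = 3.55e-08, 2.21e-11, 7.36e-05 and 3.91e-07). In Sorafenib, CDH1 at 3.33 ± 0.17 and FN1 at 0.78 ± 0.06 were higher and ZEB1 at -1.06 ± 0.13 lower in siY/T cells (limma adjusted p = 6.41e-10, 9.51e-08 and 6.94e-06), against 23.7% of all genes higher and 14.8% lower. SNAI1 differed by 0.20 ± 0.16 there (limma adjusted p = 0.254). CDH2 was also called in DMSO without siY/T DMSO replicate 1 (0.59) or siATF4 DMSO replicate 2 (0.70). ZEB2 was also called in DMSO without siY/T DMSO replicate 1 (0.64), and in Sorafenib without siY/T Srf replicate 2 (0.62) or siATF4 Srf replicate 1 (0.59). In reads, CDH1 was 41.1-fold higher in siY/T than in siATF4 cells in DMSO (95% exact interval 17.3 to 128) and 26.2-fold higher in Sorafenib (17.8 to 40.1).

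Over the 12 libraries, the log2 level of CDH1 had a Pearson r of -0.76 with ZEB1 and of 0.85 with FN1, and ZEB1 had -0.84 with FN1. CDH1 and SNAI1 had 0.13, and CDH1 and ZEB2 0.40. These are descriptions of 12 points that fall into 6 shared groups, so they follow the group means. The libraries with the least CDH1, those of siATF4, held the most ZEB1 and the least FN1.

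**Figure D4:**
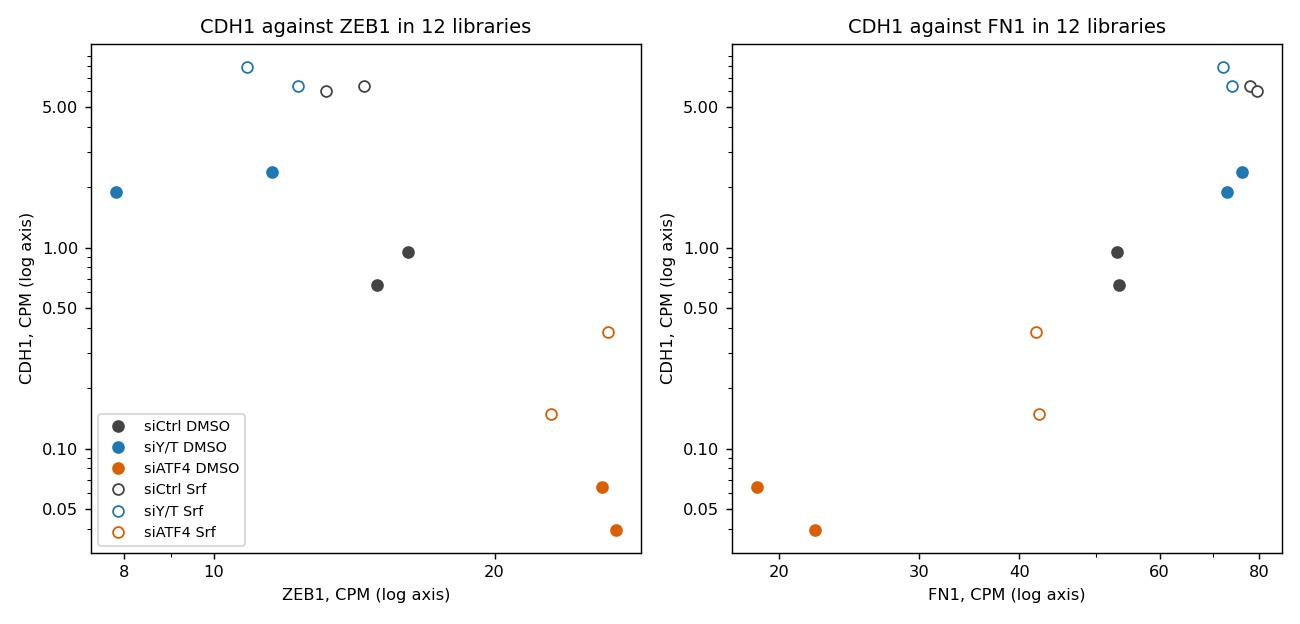
CDH1 level (y axis, CPM, log axis) against ZEB1 and FN1 level (x axes, CPM, log axes) in the 12 libraries, coloured by siRNA, filled for DMSO and open for Sorafenib. The siATF4 libraries lie at high ZEB1, low FN1 and low CDH1, apart from the other 8.

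The 3 genes outside the markers whose pattern over the 12 libraries was most like that of CDH1, by Pearson r of log2(CPM + 0.5), were THAP8 (0.988), CIMAP3 (0.988) and PHYKPL (0.986). CIMAP3 had group means of 5.04, 10.8 and 2.24 CPM in siCtrl, siY/T and siATF4 DMSO libraries and of 17.1, 22.8 and 3.84 CPM with Sorafenib. For FN1 the most alike were LLGL1 (0.992), a cell polarity gene, OLFML2A (0.987) and SLIT3 (0.987), a secreted guidance ligand. SLIT3 was at 237, 369 and 73.7 CPM in DMSO and at 399, 410.1 and 153 CPM with Sorafenib in the same order. For ZEB1 they were MTX3 (0.989), ZNF37A (0.987) and ZNHIT6 (0.986).

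Genes of related roles were described from 6 lists by their counts and medians, with no test over a list. Among all genes, 11.0% rose and 3.61% fell with siY/T in DMSO, and 6.11% rose and 3.84% fell in Sorafenib. Counts near such shares are not particular to a list. Of 30 epithelial junction, keratin and splicing genes, 12 were tested. With siY/T, 1 rose and 6 fell in DMSO, and 1 rose and 6 fell in Sorafenib, with a median log2 fold change of -0.57 in DMSO and -0.56 in Sorafenib against 0.07 and 0.05 over all genes. KRT8, an epithelial keratin, went from 2284 and 2205 CPM to 684 and 655 CPM in DMSO, a fall of 1.74 on the log2 scale (limma adjusted p = 1.83e-10). Its partner KRT18 fell by 1.65 and the tight junction gene CLDN1 by 1.12 in DMSO, and by 1.16 and 0.67 in Sorafenib. JUP, or plakoglobin, which binds cadherin tails, rose by 1.26 in DMSO and 0.95 in Sorafenib. So with siY/T in DMSO KRT8, KRT18 and CLDN1 fell while CDH1 and JUP rose, and the keratin KRT7, at 0.25, was not called.

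With siATF4, 2 of the 12 epithelial genes rose and 3 fell in DMSO, and 1 rose and 3 fell in Sorafenib, with medians of -0.15 and -0.10. Among all genes, 8.57% rose and 14.1% fell with siATF4 in DMSO, and 10.3% rose and 18.7% fell in Sorafenib. JUP went from 61.2 and 64.2 CPM to 13.8 and 11.98 CPM in DMSO, a fall of 2.24, and fell by 1.77 in Sorafenib (limma adjusted p = 2.77e-11 and 1.18e-10). KRT8 fell by 0.94 and 0.61, and PKP3, a desmosomal plakophilin, by 0.81 and 1.02. DSP, or desmoplakin, rose by 0.74 in DMSO. CDH1 and JUP were thus lowered with siATF4 and raised with siY/T in DMSO. CLDN1 and DSP of the same list went the other way. Their changes in DMSO were 0.675 and 0.74 with siATF4 and -1.12 and -0.76 with siY/T.

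Of 11 cadherin partners and other cadherins, 9 were tested. With siY/T, CDH6 and CTNNA1 rose in DMSO, and CDH6 and NECTIN3, a junction receptor, in Sorafenib, 2 of 9 each time. The shares of all genes that rose were 11.0% and 6.11%. With siATF4, CDH6, VCL and NECTIN2 fell in both, with NECTIN3 the fourth in DMSO and CTNNA1 in Sorafenib, so that 4 of 9 were called in each. The shares of all genes that fell were 14.1% in DMSO and 18.7% in Sorafenib. CDH6, a kidney cadherin, went from 3.10 and 5.06 CPM to 15.5 and 18.8 CPM with siY/T in DMSO and to 0.536 and 0.277 CPM with siATF4. On the log2 scale it rose by 1.98 and fell by 2.32 (limma adjusted p = 1.18e-06 and 1.49e-07). CTNNA1, which links cadherins to actin, rose by 0.69 with siY/T in DMSO and fell by 0.68 with siATF4 in Sorafenib. VCL, or vinculin, fell by 0.91 and 0.70 and NECTIN2, a relative of NECTIN3, by 0.72 and 0.78 with siATF4 in DMSO and in Sorafenib.

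Of 22 other mesenchymal genes, 18 were tested. With siY/T, 6 rose and 5 fell in DMSO and 3 rose and 5 fell in Sorafenib, with medians of 0.27 and -0.11. Among all genes, 11.0% rose and 3.61% fell in DMSO, and 6.11% rose and 3.84% fell in Sorafenib. TNC, the matrix protein tenascin C, rose by 1.03 in DMSO, while LOX, a collagen cross-linking enzyme, fell by 1.33 (limma adjusted p = 9.42e-09 and 1.13e-07). With siATF4, 3 rose and 8 fell in DMSO and 4 rose and 8 fell in Sorafenib, with medians of -0.32 and -0.36. For all genes these shares were 8.57% and 14.1% in DMSO and 10.3% and 18.7% in Sorafenib. S100A4 went from 9.01 and 9.61 CPM to 1.07 and 0.970 CPM in DMSO and PDGFRB, a receptor of mesenchymal cells, from 45.8 and 41.9 CPM to 7.86 and 7.15 CPM. They fell by 2.69 and 2.47 (limma adjusted p = 3.66e-11 and 9.65e-12), whereas NT5E, the surface enzyme CD73, rose by 2.17.

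Of 15 other EMT transcription factors and ID inhibitors, 10 were tested. With siY/T, 4 rose in DMSO and 4 in Sorafenib, SOX4, ID1 and ID2 in both, and 6 were not called in each. The shares of all genes that rose were 11.0% and 6.11%. SOX4 rose by 1.92 in DMSO, from 23.7 and 26.6 CPM to 92.7 and 99.9 CPM, and by 1.41 in Sorafenib (limma adjusted p = 5.80e-10 and 7.58e-09). ID1 and ID2, inhibitors of helix-loop-helix factors, rose by 0.96 and 0.64 in DMSO. With siATF4, 2 rose and 3 fell in DMSO and 3 rose and 3 fell in Sorafenib. For all genes these shares were 8.57% and 14.1% in DMSO and 10.3% and 18.7% in Sorafenib. SOX4 fell by 0.79 and 1.50 and TCF4, an E-box factor, by 1.07 and 1.28. Of 13 corepressors that work with these factors, 13 were tested. AJUBA and WTIP, LIM proteins that bind SNAI factors, fell by 1.04 and 1.06 with siY/T in DMSO. They were the only 2 of the 13 called there and again in Sorafenib. The shares of all genes that fell with siY/T were 3.61% and 3.84%. With siATF4, 2 of the 13 rose and 1 fell in DMSO, and the same genes in Sorafenib. Among all genes, 8.57% rose and 14.1% fell in DMSO, and 10.3% rose and 18.7% fell in Sorafenib. WTIP and LIMD1 rose by 0.63 and 0.67 and RCOR1 fell by 0.75 in DMSO. In Sorafenib WTIP and LIMD1 rose by 0.98 each and RCOR1 fell by 0.59.

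Of 15 genes of hyaluronan synthesis and CD44 linkage, 11 were tested. With siY/T, 2 rose and the other 9 were not called in DMSO, and 2 rose and 1 fell in Sorafenib. Among all genes, 11.0% rose in DMSO, and 6.11% rose and 3.84% fell in Sorafenib. HAS3, a hyaluronan synthase, rose by 1.35 and 1.51 and SPP1, or osteopontin, a secreted CD44 ligand, by 1.14 and 0.89. With siATF4, 1 rose and 5 fell in DMSO and 2 fell and the other 9 were not called in Sorafenib, and SPP1 fell by 1.54 and 1.64. Among all genes, 8.57% rose and 14.1% fell in DMSO, and 18.7% fell in Sorafenib. The 2 falls in Sorafenib are near that share.

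**Figure D5:**
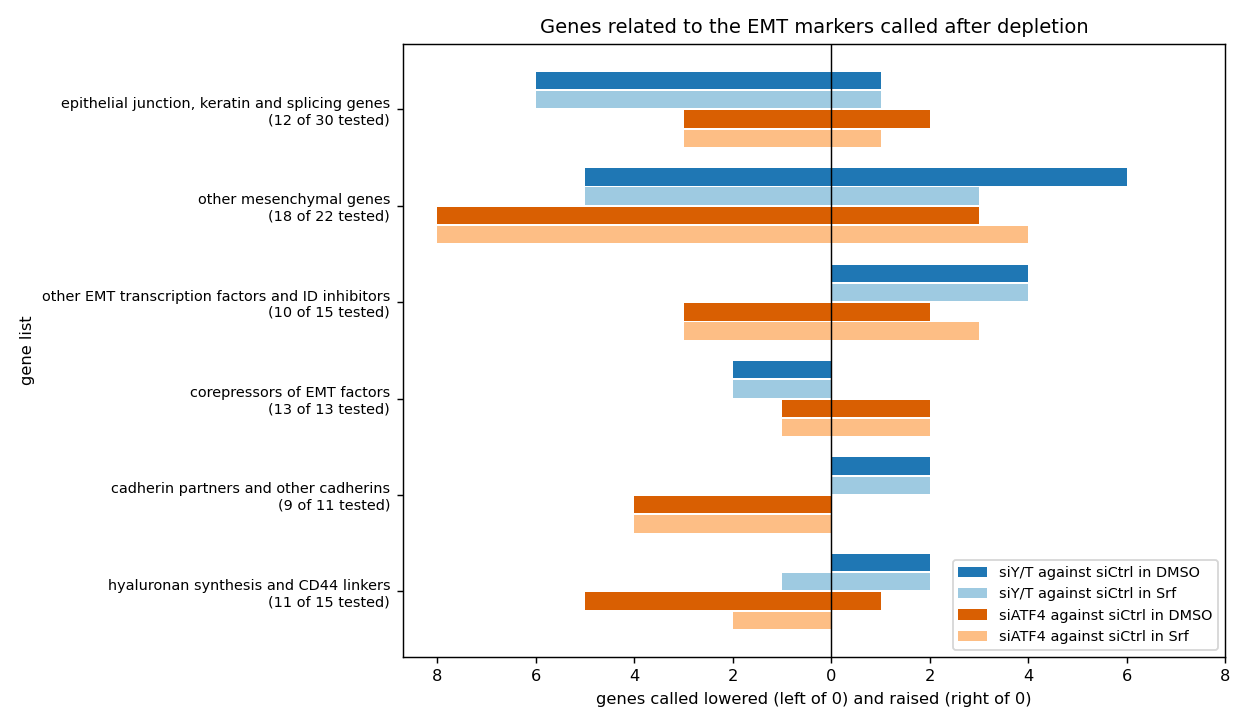
Number of genes called lowered (bars left of 0) and raised (bars right of 0) by limma in 6 lists related to the markers (y axis, with the number tested), after siY/T or siATF4 against siCtrl in DMSO and in Sorafenib. Of the 9 cadherins and cadherin partners tested, 2 were called raised with siY/T and 4 called lowered with siATF4 in each treatment, and the rest were not called. Among all genes, 11.0% in DMSO and 6.11% in Sorafenib rose with siY/T, and 14.1% and 18.7% fell with siATF4.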

How the data were processed

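Poly(A) RNA of HLE cells was sequenced in 12 libraries. According to the labels and the study's methods, the authors aligned single-end reads with STAR (hg19), took uniquely mapped reads, summed them per gene over RefSeq exons in QuasR and deposited the result as CPM, scaled to 1000000 per library. Every value was a whole number of reads to within 0.001 read, and these reads were recovered. Entrez identifiers were named from RefSeq (26111 of 26258). The genes and lists were chosen with earlier results of these data known.

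Genes that reached 1 CPM in 2 or more libraries were tested on log2(CPM + 0.5) with limma 3.58.1 in R 4.3.3, with a variance trend and 1 coefficient per group, so that the 6 groups shared 1 estimate of the spread. Depth is 41408348 to 53619732 reads on genes per library. Exact intervals of read ratios are conditional binomial intervals. Named in the text are the 10 markers, the siRNA targets, up to 4 called genes per list and comparison with the largest change and a mean of at least 5 CPM, and the 3 genes most alike in pattern to each of the 3 markers with the widest span. Alternatives were pseudocounts of 0.1 and 1, other filters, TMM scaling, quantile normalization, a replicate block, a fit restricted to the groups of each comparison, adjusted p-values, edgeR 4.0.16 and DESeq2 1.42.0 on recovered reads, and leaving out each library. The steps were tested on simulated reads. Positions came from GENCODE on GRCh37. Tables were read and figures drawn with Python 3.11.15, pandas 2.3.3 and matplotlib 3.10.9.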

Additional observations from a re-analysis of the deposited data

Results flagged for a closer look

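For 10 values, the effect of Sorafenib differed from that in siCtrl cells by a test of the difference itself (limma, adjusted p under 0.05, log2 scale). The share of all genes called in this way was 22.0% with siY/T and 41.1% with siATF4. In siY/T cells the differences were -0.589 for FN1, -0.822 for SNAI1, -0.321 for VIM, 0.591 for ZEB2 and -0.835 for CDH1. FN1 is the clearest of these in the libraries: Sorafenib brought it from 53.4 and 53.0 CPM to 77.8 and 79.6 CPM in siCtrl cells, and left siY/T cells at 72.9 and 76.0 CPM before and 73.9 and 72.1 CPM after. In siATF4 cells the differences were 0.468 for FN1, 0.449 for TWIST1, -0.473 for VIM, 0.530 for ZEB2 and -1.91 for CDH1. VIM lay on opposite sides, 0.32 higher with Sorafenib in siCtrl cells and 0.15 lower in siATF4 cells, both short of the fold required. The CDH1 difference in siATF4 cells was not called on recovered reads, where 5 reads in DMSO and 27 in Sorafenib stand behind it. The SNAI1, VIM and CDH1 differences in siY/T cells and the TWIST1 difference in siATF4 cells lost their calls in some settings, as given above. The siY/T DMSO libraries, which stand furthest apart, enter each siY/T difference.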

How the results depend on the processing

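Of 33 called values for single genes, recomputed in 502 settings in all, 474 kept direction and call, 28 kept the direction and lost the call, and 0 reversed. The number of markers called was unchanged or within 1.5 times outside the following. For siY/T in Sorafenib it went from 2 to 1 under TMM scaling, quantile normalization, edgeR and DESeq2, where ZEB2 was short of the fold. For Sorafenib in siCtrl cells it went from 1 to 2 under quantile normalization, where SNAI1 came to -0.66. For Sorafenib in siATF4 cells it went from 1 to 2 with a pseudocount of 0.1, edgeR and DESeq2, where CDH1 was added. For the difference with siY/T it went from 5 to 2 without a filter on low values, where more genes were tested and SNAI1, CDH1 and VIM lost their calls. Leaving out single libraries, with the lone sample of a group assumed to vary like the other groups, gave 1 to 2 markers for siY/T in DMSO and for siY/T in Sorafenib, 1 to 2 for Sorafenib in siATF4 cells, 3 to 6 for the difference with siY/T, 4 to 5 for that with siATF4, 4 to 6 for siY/T against siATF4 in DMSO and 3 to 4 in Sorafenib. Counts of the other comparisons stayed at their value.

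Replicate numbers were not taken to pair the libraries, since the labels tie them to no shared culture or day. Of 15 pairs of groups, 4 had a correlation of the replicate differences over 0.1 and 2 under -0.1. Within Sorafenib the correlations were 0.100 to 0.164, within DMSO 0.0358 to 0.193, and across treatments -0.282 to 0.00540. A replicate block, fitted as 1 effect over both treatments, left the number of markers called in each comparison as it was, 2 for siY/T and 4 for siATF4 in either treatment, and changed no call of a marker. Since the correlations were positive within a treatment and mostly negative across, 1 shared effect cannot show whether pairing within a treatment matters. Quantile normalization moved the median of all genes by -0.12 in siY/T against siATF4. It moved the share of falls among all calls from 24.7% to 43.0% for siY/T in DMSO, from 64.6% to 51.5% for siATF4 in Sorafenib, from 29.5% to 47.7%, 41.5% to 53.1% and 34.2% to 45.3% for Sorafenib in siCtrl, siY/T and siATF4 cells, and from 36.3% to 51.6% and 38.5% to 51.5% for siY/T against siATF4 in DMSO and Sorafenib. Depth limits CDH1 in siATF4 cells, whose fall in DMSO ranged from -0.77 with a pseudocount of 1 to -3.95 in DESeq2, and SNAI2. The causes of these shifts were not tested.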

Other observations

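Sorafenib moved some of the related genes as well. Of the 18 mesenchymal genes tested, 5 rose and 1 fell in siCtrl cells. In siY/T cells 1 rose and 3 fell, and in siATF4 cells 6 rose and 1 fell. Among all genes, 12.3% rose and 5.15% fell in siCtrl, 5.83% and 4.14% in siY/T, and 5.68% and 2.95% in siATF4 cells. Counts near such shares are not particular to the list. The median log2 fold changes of the list were 0.23, 0.06 and 0.28 against 0.05, 0.04 and 0.03 over all genes. PDGFRB rose with each siRNA, from 45.8 and 41.9 CPM to 79.3 and 79.2 CPM in siCtrl, from 41.3 and 41.9 CPM to 67.5 and 72.9 CPM in siY/T, and from 7.86 and 7.15 CPM to 19.0 and 17.7 CPM in siATF4 cells. NT5E fell with each siRNA, by 0.90, 0.74 and 0.81 on the log2 scale (limma adjusted p = 1.73e-05, 0.000163 and 8.51e-05). TAGLN, an actin-binding protein of smooth muscle, fell by 1.15 with Sorafenib in siY/T cells.

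Among the epithelial genes, LLGL2, a polarity gene, rose by 1.03 with Sorafenib in siCtrl cells and by 0.69 in siY/T cells. CLDN1 went from 197 and 219 CPM to 81.7 and 72.4 CPM in siATF4 cells, a fall of 1.43 (limma adjusted p = 1.05e-08), while PKP2 and JUP rose by 1.07 and 0.73 there. HAS3 fell with Sorafenib in siCtrl and siY/T cells, by 1.06 and 0.89, and SPP1 rose in siCtrl and siATF4 cells, by 0.69 and 0.59.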
